A study of Mus musculus with 18 samples.

Results

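The proteasome genes of the mouse whisker pad were followed here after the facial nerve was cut. The members were all protein-coding genes whose symbol begins with Psma, Psmb, Psmc, Psmd, Psme, Psmf or Psmg in the GENCODE M21 annotation of build GRCm38. The rule took 50 of the 35150 genes that the transcripts were summed to, and 47 of them had a mean of at least 1 TPM (a transcript-abundance unit scaled to a library's total, already divided by transcript length) over the samples, as did 15032 genes in all. Psma8, Psmb11 and Psme2b lay under that minimum, with means of 0.118, 0.425 and 0.108 TPM, and were not tested. Psmc3ip, whose mean was 7.54 TPM, is taken by its symbol but encodes a protein of meiotic recombination and not a proteasome subunit.

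RNA-seq was done on punch biopsies, holding skin and muscle, of the rostral whisker pad in 9 mice, 3 at each of days 1, 3 and 7 after surgery. On the right, 2 branches of the facial nerve, the buccal and the superior marginal, were cut (denervated). The left pad of each mouse served as the control and had a skin incision without a nerve cut (sham). This gave 6 groups of 3 samples and 18 samples in all; the genotype of these mice was not given in the sources used here, and an effect of the right or left side cannot be told apart from that of the lesion. Because each biopsy mixes tissues, fewer cells of a type and less RNA per cell cannot be told apart in any level below.

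The proteasome degrades proteins that carry ubiquitin chains. Its barrel-shaped 20S core has outer rings of alpha subunits, which gate the channel, and inner rings of beta subunits, of which Psmb5, Psmb6 and Psmb7 encode the catalytic ones. The 19S cap adds a ring of ATPases (Psmc genes), which unfold the substrate, and non-ATPase subunits (most Psmd genes), which bind and remove ubiquitin. In cells exposed to interferon gamma and in immune cells, Psmb8, Psmb9 and Psmb10 replace the catalytic subunits in the immunoproteasome, which makes peptides for MHC class I. In skeletal muscle the ubiquitin-proteasome system is known for its part in the loss of muscle protein during atrophy.

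The summed value of a library, in the unit the authors deposited, was between 833186 and 1143839, and read depth per library is unknown. As a check of the labels, Myog, a transcription factor of muscle differentiation that denervated muscle switches on, was higher on the denervated side over all days with a log2 fold change of 4.54 (SE 0.25, limma with Benjamini-Hochberg adjustment, adjusted p = 3.99e-08). The mean of 10 skeletal muscle markers on the log2(TPM + 0.5) scale was between 9.97 and 10.99 in 16 samples, but 8.19 and 8.83 in the sham and denervated samples of day 1 mouse 1, so those libraries stood apart. No marker of the muscle list was at 0 in any sample.

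The constitutive core and cap genes had means between 54.6 and 316 TPM. The 7 alpha genes had means over the 18 samples from 94.0 TPM (Psma2) to 293 TPM (Psma3), and the 7 constitutive beta genes from 198 TPM (Psmb2) to 316 TPM (Psmb4). The 6 ATPase genes ranged from 104 TPM (Psmc6) to 189.5 TPM (Psmc1). The 11 non-ATPase cap genes ranged from 54.6 TPM (Psmd11) to 207 TPM (Psmd8). Within the ATPases, neighbours in this order overlapped over the samples: Psmc3 lay between 141 and 187 TPM, and Psmc5 between 133 and 190.4 TPM. The immunoproteasome genes were far lower, at 44.5 TPM for Psmb10, 25.8 TPM for Psmb8 and 20.3 TPM for Psmb9. The assembly chaperones lay between 8.45 TPM (Psmd10) and 41.7 TPM (Psmg2). The activators spread most, from 26.7 TPM for Psme4 to 204 TPM for Psme2. The 47 genes with a mean of at least 1 TPM together held between 0.463% and 0.674% of a library's summed value.

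The sum over the 31 constitutive core and cap genes was higher on the denervated side, most clearly at day 3. At day 1 it was 4548, 5078 and 5160 TPM in the sham samples and 4943, 5228 and 5741 TPM in the denervated samples, in rising order. At day 3 it was 4612, 4918 and 5060 TPM against 5567, 5695 and 6285 TPM. At day 7 it was 4104, 4530.0 and 4894 TPM against 4882, 5032 and 5354 TPM. The groups did not overlap at day 3, and they overlapped at days 1 and 7. Within each mouse of days 1 and 7, however, the denervated sum was the higher. At day 1, sham against denervated, it was 4548 against 4943, 5078 against 5741 and 5160 against 5228 TPM. At day 7 it was 4104 against 5032, 4530.0 against 4882 and 4894 against 5354 TPM. At day 3 the mean was 4863 ± 229 TPM (SD, n = 3) on the sham side and 5849 ± 383 TPM (SD, n = 3) on the denervated side.

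Over all days, the question was which proteasome genes differed between the sides when day was held as a term of the model. Of the 47 members, 41 had a positive log2 fold change (denervated over sham, on log2(TPM + 0.5)), with a median of 0.15, against 52.0% of all genes tested and a median of 0.0078. All 31 constitutive core and cap genes had a positive value, from 0.043 (Psmd3) to 0.35 (Psmb5), with a median of 0.18, which is 13.3%. Single genes rarely passed the test. Only 3 of 47 members did at an adjusted p of 0.05, all of them higher, where 3.11% of all genes passed. At an unadjusted p of 0.05, 26 members were higher and 1 was lower, where 14.5% of all genes passed in either direction.

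**Figure D1:**
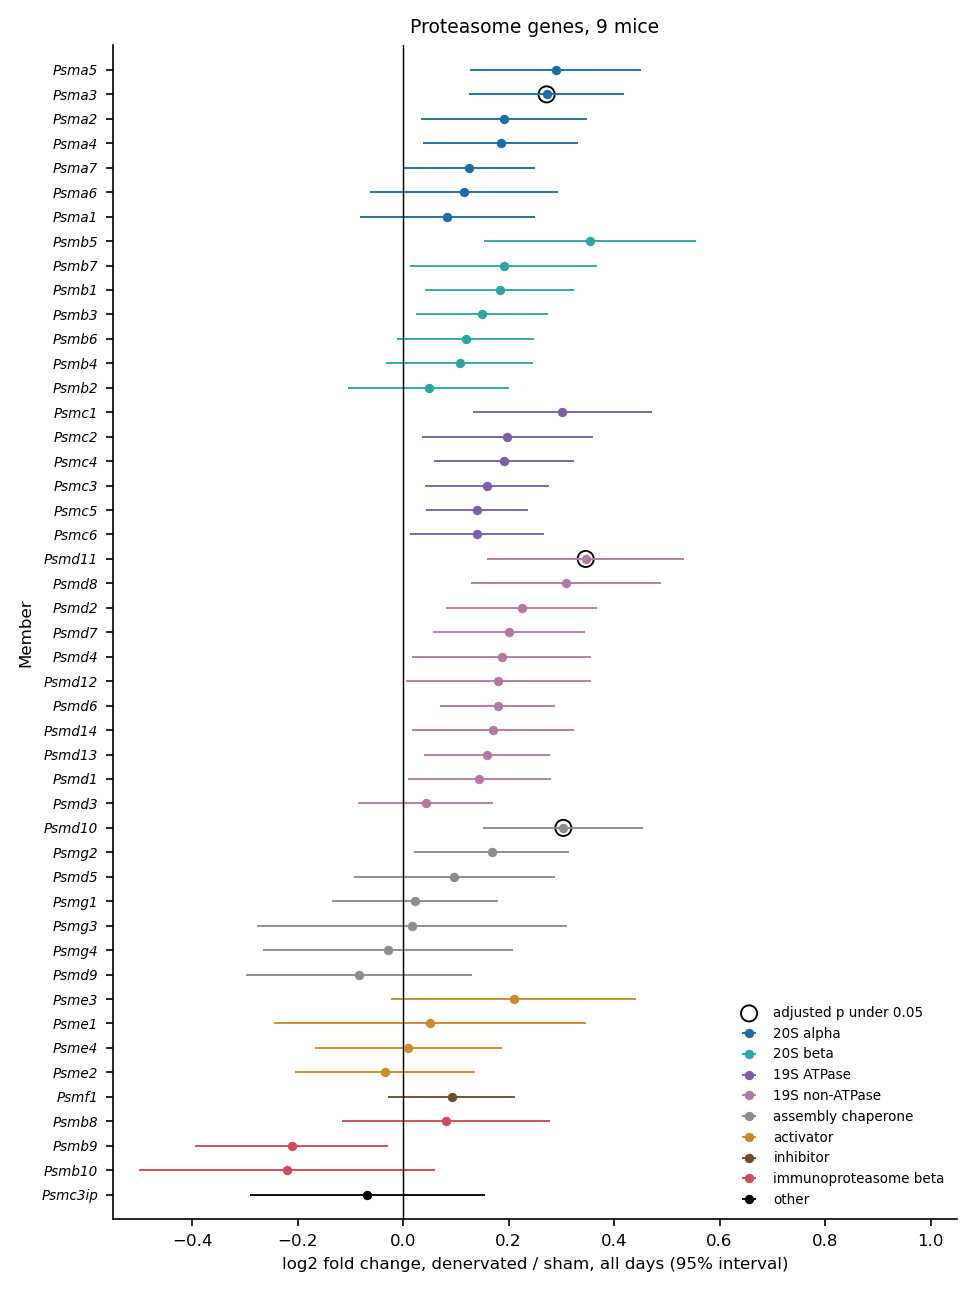
Log2 fold change of each of the 47 members over all days (points, limma) with its 95% interval (lines), grouped and coloured by the part of the complex. A ring surrounds the 3 genes whose adjusted p was under 0.05. All core and cap points lie to the right of 0, 7 of them with an interval that reaches 0, whereas the points of Psmb9 and Psmb10 lie to the left.

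Psmd10, which encodes gankyrin, a chaperone of cap assembly, had the smallest adjusted p. At day 1 it was at 7.12, 7.71 and 7.65 TPM on the sham side and 8.90, 9.74 and 8.12 TPM on the denervated side of mice 1, 2 and 3. At day 3 it was at 7.99, 8.07 and 6.73 TPM against 11.2, 10.2 and 8.57 TPM, and at day 7 at 6.48, 6.79 and 9.05 TPM against 8.69, 9.33 and 9.73 TPM. The denervated samples lay above all sham samples of their day at days 1 and 3, and overlapped with 1 sham sample at day 7. The log2 fold change over all days was 0.30 (SE 0.072, limma with Benjamini-Hochberg adjustment, adjusted p = 0.027), or 1.23-fold.

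Psma3, an alpha subunit of the core, was the most abundant alpha gene. At day 3 it was at 249, 244 and 289 TPM on the sham side and 349, 351 and 336 TPM on the denervated side. At day 7 it was at 249, 274 and 270.2 TPM against 313, 309 and 328 TPM, again without overlap. At day 1 the sides overlapped, at 261, 289 and 262 TPM against 255, 365 and 286 TPM. Its log2 fold change over all days was 0.27 (SE 0.069, limma, adjusted p = 0.042).

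Psmd11, a lid subunit of the cap, had its largest value at day 7 when its transcripts were summed. It was at 41.2, 39.2 and 47.8 TPM on the sham side and 70.04, 53.4 and 79.2 TPM on the denervated side at that day. At day 3 the values were 60.3, 53.8 and 48.1 TPM against 65.6, 64.0 and 62.7 TPM, and at day 1 they were 42.2, 50.5 and 48.1 TPM against 53.0, 51.9 and 50.9 TPM. The sides did not overlap at any of the 3 days. Its log2 fold change over all days was 0.35 (SE 0.089, limma, adjusted p = 0.042). At day 7 alone it was 0.64 (SE 0.17, adjusted p = 0.197). With all 18 samples in the fit it passed at that day (adjusted p = 0.022), as did 225 of 15032 genes in all. Its highest transcript, which holds 70.9% of its level, had a smaller log2 fold change of 0.35 at day 7 (SE 0.11, adjusted p = 0.46 over all transcripts).

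**Figure D2:**
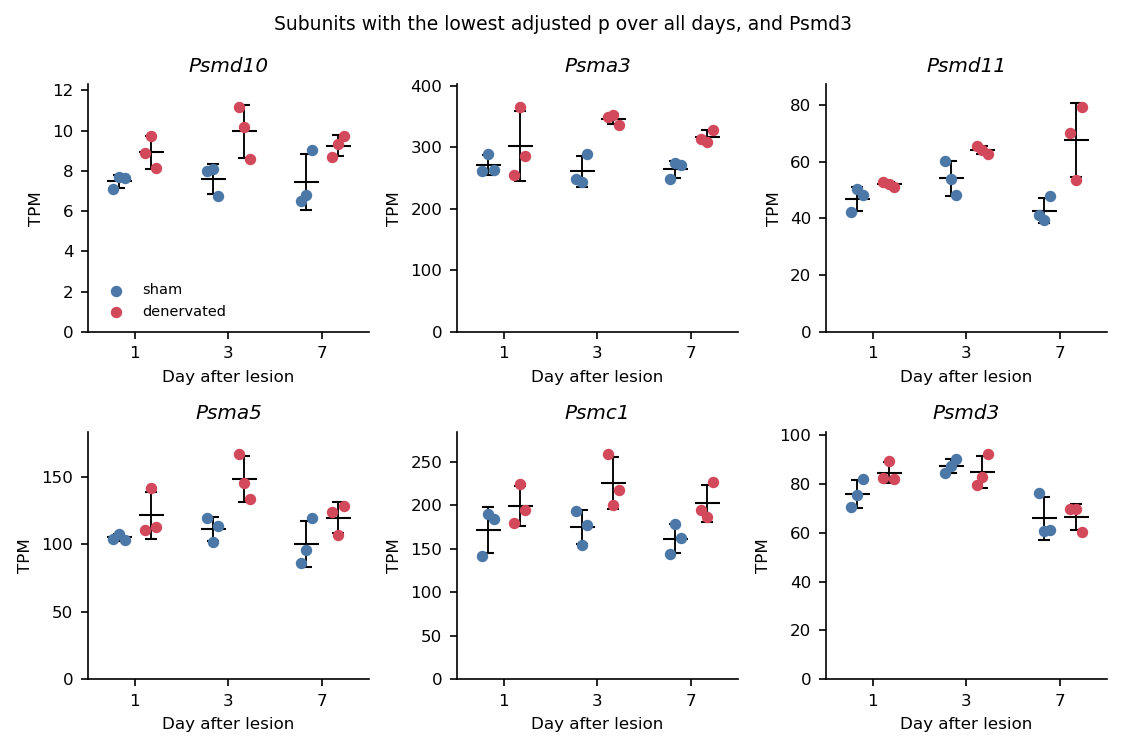
TPM of 6 proteasome genes in each sample (points) by day after lesion and side, with the mean and SD of 3 mice (black bars). For Psmd11 the 3 denervated samples lie above the 3 sham samples at each day, whereas for Psmd3 the sides overlap at each day.

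The calls sat close to the threshold. Psma5 (adjusted p = 0.05001), Psmc1 (0.052), Psmb5 (0.054) and Psmd8 (0.061) missed it in the same limma fit, with log2 fold changes of 0.29, 0.30, 0.35 and 0.31. In the paired fit, which held each mouse as a block, 5 members passed: Psma3, Psma5, Psmb5, Psmc1 and Psmd10, so that the call of Psmd11 was lost (adjusted p = 0.052). Mice were also left out 1 at a time. No member passed without day 1 mouse 2, day 3 mouse 1, day 3 mouse 2, day 7 mouse 1 or day 7 mouse 2. Without day 3 mouse 3, 1 passed, 2 passed without day 7 mouse 3, and 5 passed without day 1 mouse 1 or day 1 mouse 3. Calls over all genes moved as well. They numbered 468 in the reported fit and 517 in the paired fit, and ran from 230 to 708 without 1 mouse. No member passed when the libraries were scaled to the muscle markers, where 150 of 15287 genes in all did. The median of the core and cap genes was then still 0.17.

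In each of the 9 mice, most members were higher on the denervated side. Of the 47 members, between 28 (day 1 mouse 3) and 42 (day 3 mouse 2) were higher on the denervated side, where the share of all genes that were higher ran from 45.9% to 56.3%. The median difference of the 31 core and cap genes was above 0 in 9 of 9 mice, from 0.029 in day 1 mouse 3 to 0.33 in day 7 mouse 1 on the log2 scale. The muscle marker mean differed between the sides by -0.76 in day 1 mouse 3 and by 0.63 in day 1 mouse 1, and was lower on the denervated side in 5 of the 9 mice. The part of muscle content in the result was not tested. Higher in all 9 mice were 10 members, Psma2, Psma5, Psmb1, Psmb5, Psmc1, Psmc5, Psmd2, Psmd6, Psmd10 and Psmd11, where 1.94% of all genes were. Psmd2, a large scaffold subunit of the cap, had a log2 fold change of 0.22 over all days (SE 0.068, limma, adjusted p = 0.089). Psmd6, a lid subunit, had 0.18 (SE 0.052, adjusted p = 0.073).

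**Figure D3:**
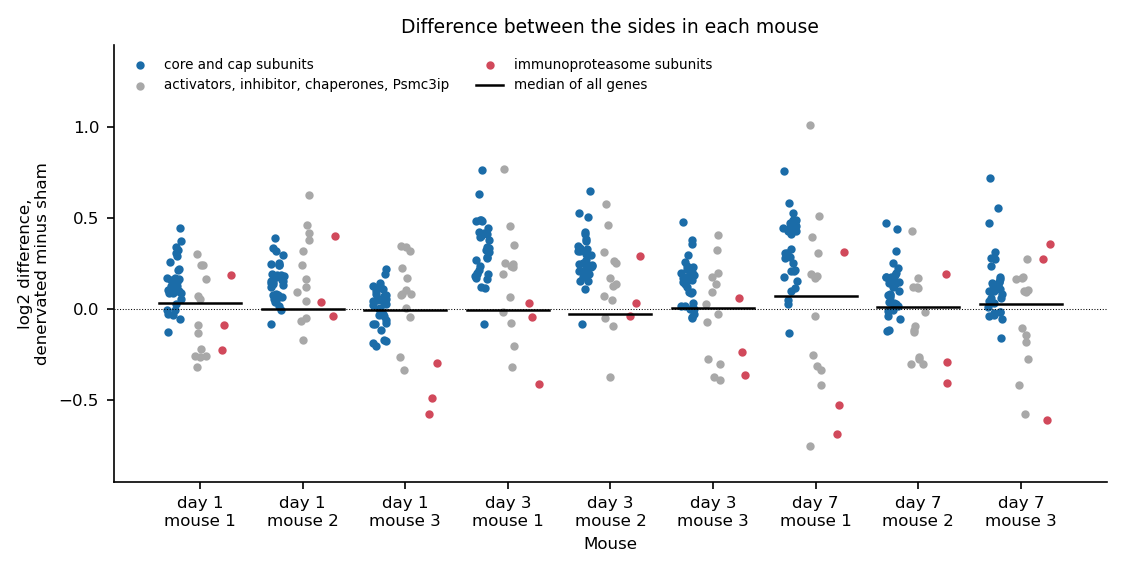
Difference between the denervated and the sham side of each mouse, on log2(TPM + 0.5), for each member (points) and as the median of all genes tested (black line). The core and cap genes (blue) lie mostly above 0 in all 9 mice, with the smallest median, 0.029, in day 1 mouse 3.

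At day 1 no member passed (0.0% of all genes did), and none reached an unadjusted p of 0.05, where 4.34% of all genes did. The median log2 fold change of the 31 core and cap genes was 0.096 and 29 were positive, where the median of all genes was 0.0050. All 3 denervated samples lay above all 3 sham samples for 4 of 47 members, where this held for 5.5% of all genes. These were Psma5, Psmc5, Psmd10 and Psmd11.

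At day 3 the core and cap genes had their highest median, 0.24, and 30 of 31 were positive, where the median of all genes was -0.016. No member passed at this day, where 1.28% of all genes did, but 18 members, all of them higher, reached an unadjusted p of 0.05, where 14.8% of all genes did. The denervated samples lay above the sham samples without overlap for 22 of 47 members, 19 of them in the core and cap, where this held for 11.6% of all genes. When the libraries were scaled to the muscle markers, the median was 0.14 and that of all genes was -0.12. Psmb5, which encodes the chymotrypsin-like catalytic subunit, had the largest difference. It was at 159, 183 and 199.9 TPM on the sham side and 269.6, 288 and 279 TPM on the denervated side. The mean was 181 ± 20.7 TPM on the sham side and 279 ± 9.05 TPM on the denervated side (SD, n = 3), a log2 fold change of 0.63 (SE 0.11, limma, adjusted p = 0.062). With all 18 samples in the fit, Psmb5 passed at day 3 (adjusted p = 0.043), as did 323 of 15032 genes in all. Psmd3, a cap subunit, was the exception in the core and cap at day 3, with 84.5, 87.5 and 90.2 TPM on the sham side and 79.9, 82.8 and 92.3 TPM on the denervated side.

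At day 7 the median of the core and cap genes was 0.18 and 30 of 31 were positive, where the median of all genes was 0.039. No member passed (1.28% of all genes did), and 4 higher members and 1 lower member reached an unadjusted p of 0.05, where 12.1% of all genes did. The denervated samples lay above the sham samples for 8 of 47 members, where 10.4% of all genes did so. All 8 were core or cap genes: Psma3, Psmb5, Psmc1, Psmc3, Psmc5, Psmd4, Psmd8 and Psmd11. Psmc1, an ATPase of the cap, was at 144, 178 and 163 TPM on the sham side and 194, 186 and 227 TPM on the denervated side. Psmd8, a lid subunit, was at 156, 149 and 178 TPM against 219.8, 207 and 263 TPM.

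The 3 immunoproteasome genes lay on both sides of 0 and gave no call. Over all days the log2 fold changes were 0.082 for Psmb8 (SE 0.093), -0.21 for Psmb9 (SE 0.086) and -0.22 for Psmb10 (SE 0.13), and none passed (limma, adjusted p = 0.79, 0.24 and 0.51). The 95% interval was -0.12 to 0.28 for Psmb8, -0.39 to -0.029 for Psmb9 and -0.50 to 0.060 for Psmb10. Psmb8 and Psmb9 lie close together in the MHC region of chromosome 17, at 34197721 to 34201454 and 34181987 to 34187764, and Psmb10 lies on chromosome 8 at 105935735 to 105938444.

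Psmb9 was at 20.2, 19.4 and 27.7 TPM on the sham side and 17.2, 18.9 and 19.6 TPM on the denervated side at day 1. At day 3 it was at 19.8, 20.2 and 19.7 TPM against 14.8, 19.6 and 16.7 TPM, where all denervated samples lay below all sham samples. At day 7 the sides overlapped, at 26.2, 24.2 and 18.8 TPM against 18.004, 19.7 and 24.3 TPM. Psmb10 was at 37.1, 39.7 and 55.5 TPM against 34.8, 52.6 and 45.1 TPM at day 1, and at 33.9, 47.01 and 56.5 TPM against 34.6, 48.2 and 43.9 TPM at day 3, with overlap at both days. At day 7 it was at 59.7, 56.2 and 46.4 TPM on the sham side and 36.9, 42.2 and 30.2 TPM on the denervated side, without overlap. Its log2 fold change at day 7 was -0.57 (SE 0.16, limma, adjusted p = 0.234). The transcript with the largest part of its level, 46.3%, is annotated as a processed transcript and not as protein-coding. At day 7 that transcript had a log2 fold change of -0.75 (SE 0.18), whereas the protein-coding transcript of Psmb10 had -0.13 (SE 0.21, adjusted p = 0.89 over all transcripts). Psmb8 was at 24.9, 22.6 and 35.8 TPM against 28.4, 23.2 and 23.8 TPM at day 1. At day 3 it was at 24.2, 24.6 and 22.5 TPM against 23.5, 30.2 and 23.5 TPM, and at day 7 at 25.004, 21.6 and 24.3 TPM against 31.2, 24.8 and 29.4 TPM, with overlap at each day.

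The level of each immunoproteasome gene was also set against that of the subunit it replaces. Psmb10 was at 27.3% ± 7.61 of the level of Psmb7 (SD, n = 3) in the day 7 sham samples and at 15.8% ± 4.90 in the denervated samples, but at 23.0% ± 2.89 and 21.7% ± 2.95 at day 1. The Psmb10 level is a gene sum, of which the processed transcript holds 46.3%. At day 7 that transcript was lowered more than the protein-coding one, as given above. Psmb8 was at 13.3% ± 2.01 of the level of Psmb5 in the day 3 sham samples and at 9.22% ± 1.12 in the denervated samples, but at 13.2% ± 1.76 and 13.7% ± 2.166 at day 7. Psmb5 differed between the sides without overlap at day 3, while the values of Psmb8 overlapped. Psmb9 was at 7.15% ± 0.935 of the level of Psmb6 in the day 3 sham samples and at 5.45% ± 0.614 in the denervated samples, and at 9.44% ± 1.60 and 8.37% ± 1.71 at day 7. The ratio was lower on the denervated side in 8 of 9 mice for Psmb10 to Psmb7, in 8 of 9 for Psmb9 to Psmb6 and in 6 of 9 for Psmb8 to Psmb5. These ratios are a description and were not tested. Psmb6, for its part, was at 248, 276 and 321 TPM in the day 3 sham samples and 292, 319 and 324 TPM in the denervated samples. Psmb7 was at 211, 203 and 206 TPM against 266, 249.5 and 233 TPM at that day, without overlap. Their log2 fold changes over all days were 0.12 (SE 0.062) and 0.19 (SE 0.084), and neither passed (limma, adjusted p = 0.41 and 0.30).

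**Figure D4:**
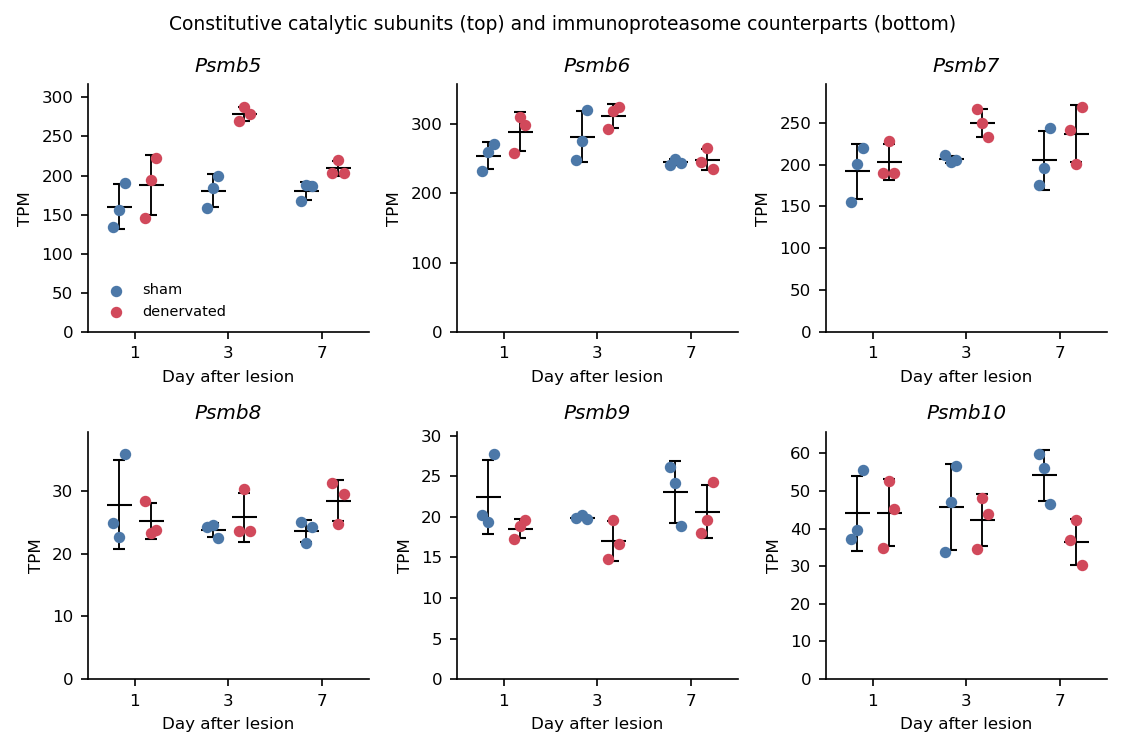
TPM of the 3 constitutive catalytic genes (top) and of the immunoproteasome genes that take their places (bottom) in each sample (points) by day after lesion and side, with the mean and SD of 3 mice (black bars). Psmb5 separates fully at day 3, with 159 to 199.9 TPM on the sham side and 269.6 to 288 TPM on the denervated side. Psmb10, as a sum that includes its processed transcript, separates in the opposite direction at day 7.

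The activators and the inhibitor varied with no shared direction. Psme1 and Psme2, the subunits of the PA28 ring that interferon gamma induces, had log2 fold changes over all days of 0.051 (SE 0.14) and -0.035 (SE 0.081). Psme3, the nuclear PA28 gamma, had 0.21 (SE 0.11), and Psme4, which encodes PA200, had 0.010 (SE 0.084). None passed (limma, lowest adjusted p = 0.42). Psme3 was at 41.4, 37.9 and 55.7 TPM on the day 7 sham side and 84.1, 41.2 and 51.8 TPM on the denervated side, where day 7 mouse 1 alone stood high. Without that mouse the log2 fold change of Psme3 over all days was 0.11 (limma, adjusted p = 0.72). Psme2 was at 246, 237 and 233 TPM on the day 1 sham side and at 206, 280.1 and 247 TPM on the denervated side. Psmf1, the inhibitor PI31, had a log2 fold change of 0.092 (SE 0.057, adjusted p = 0.53).

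Of the 7 assembly chaperones, 5 had a positive value over all days and Psmd10 alone passed. The other end of the class was Psmd9, a chaperone of cap assembly, with -0.084 (SE 0.10, limma, adjusted p = 0.80). The median of the class was 0.023, against 0.18 in the core and cap, and the difference between the classes was not tested.

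Whether the difference between the sides changed with day was tested with interaction terms in 1 limma fit of the 6 groups. No member passed for day 3 against day 1 (0.186% of all genes did), day 7 against day 1 (0.173%) or day 7 against day 3 (0.02%). At an unadjusted p of 0.05 there were 2, 2 and 1 of the 47 members, where 9.23%, 7.18% and 6.89% of all genes were. For Psmb5 the difference at day 3 exceeded that at day 1 by 0.41 (SE 0.21, 95% interval -0.047 to 0.87). This interval includes 0, and the fit did not pair the sides of a mouse. Taken mouse by mouse, every Psmb5 difference of day 3 (0.76, 0.65, 0.48) exceeded every difference of day 1 (0.13, 0.32, 0.22). That ordering was not tested, and Psmb5 had the largest day 3 difference of the members. How many of all genes show such an ordering was not counted. With the mouse as a block, still no member passed for these terms. For Psmd11 the difference at day 7 exceeded that at day 1 by 0.49 (SE 0.19, adjusted p = 0.58).

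Between days on one side, different mice were compared. On the sham side no member passed from day 1 to day 3 or from day 3 to day 7 (0.0% of all genes in each), and 1 and 4 of the 47 members, all lower, reached an unadjusted p of 0.05, where 13.3% and 13% of all genes did. On the denervated side 2 members passed from day 1 to day 3, Psmb5 and Psmc3ip, which is not a proteasome subunit, where 10% of all genes did. At an unadjusted p of 0.05 there were 7 of the 47 members, where 4030 of 15032 genes were. Psmb5 rose from 146, 195 and 222 TPM at day 1 to 269.6, 288 and 279 TPM at day 3, a log2 change of 0.59 (SE 0.15, limma, adjusted p = 0.025), without overlap. The muscle markers were lower at day 1, and with the libraries scaled to them the change of Psmb5 was -0.19, where the median of all genes was -0.71. Psmc3ip fell from 9.18, 9.72 and 10.3 TPM to 6.73, 5.76 and 6.39 TPM, a log2 change of -0.59 (SE 0.17, adjusted p = 0.037). No member passed in these contrasts when day 1 mouse 2, day 3 mouse 2 or day 3 mouse 3 was left out. The genes that passed in all from day 1 to day 3 numbered 719, 422 and 721 there, in that order, against 1503. Without day 7 mouse 1, 1 member passed, and 1334 genes in all did from day 1 to day 3. From day 3 to day 7 no member passed on the denervated side (0.313% of all genes did), and 11, all lower, reached an unadjusted p of 0.05, where 12.4% of all genes did. Of the 47, 41 were negative with a median of -0.18. Psmb5 was then at 203, 220.2 and 204 TPM, a log2 change of -0.42 from day 3 (SE 0.15, adjusted p = 0.27).

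The transcripts that make up each gene were also fitted 1 by 1. The 47 members have 157 transcripts that passed the same minimum, and none was called over all days or at day 1, 3 or 7, where 0.961%, 0.0%, 0.266% and 0.34% of all 32347 transcripts were. Over all days 103 of the 157 were positive and 35 reached an unadjusted p of 0.05, where 9.87% of all transcripts did.

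The promoters of the members were searched for motifs that bear on 2 known ways of proteasome control. The antioxidant response element (letters TGACNNNGC) is a known site of Nfe2l1 and Nfe2l2. Of these, Nfe2l1 is the factor known for driving core and cap genes when the proteasome falls short. The gamma-activated site (TTCNNNGAA) is a known element of interferon gamma responses, and an interferon regulatory factor motif was taken as GAAANNGAA. Both strands of the 250 bases before the RefSeq start (build GRCm38.p6) were read, and 40 of the 47 members matched a promoter. The antioxidant motif was in 5 of 40, namely Psmb5, Psmb6, Psmc6, Psmd9 and Psmd12, against 10.2% of all 32851 promoters. The gamma-activated motif was in 2 of 40, Psmb8 and Psmg1, against 7.02%. The interferon regulatory factor motif was in 3 of 40, Psmb3, Psmd4 and Psmd9, against 7.13%. The windows of Psmb5 and Psmb6 are shown because Psmb5 had the largest difference and both hold the antioxidant motif, and those of Psma3, Psmd10 and Psmd11 because these genes passed over all days. They run 5′ to 3′ on the strand of the gene, and capitals mark the motif. They lie at chr14:54617996-54618245 (Psmb5, minus strand), chr11:70525107-70525356 (Psmb6, plus strand), chr12:70974373-70974622 (Psma3, plus strand), chrX:140956712-140956961 (Psmd10, minus strand) and chr11:80428365-80428614 (Psmd11, plus strand).
Psmb5: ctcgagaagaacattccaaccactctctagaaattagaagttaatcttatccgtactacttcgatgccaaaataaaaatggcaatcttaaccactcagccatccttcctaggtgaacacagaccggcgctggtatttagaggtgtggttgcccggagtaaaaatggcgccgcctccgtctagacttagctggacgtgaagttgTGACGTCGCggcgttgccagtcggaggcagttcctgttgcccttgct
Psmb6: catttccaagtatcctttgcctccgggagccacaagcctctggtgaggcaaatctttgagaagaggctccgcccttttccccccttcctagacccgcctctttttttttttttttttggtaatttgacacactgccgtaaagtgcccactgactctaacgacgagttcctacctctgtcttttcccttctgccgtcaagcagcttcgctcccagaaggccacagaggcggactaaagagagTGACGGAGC
Psma3: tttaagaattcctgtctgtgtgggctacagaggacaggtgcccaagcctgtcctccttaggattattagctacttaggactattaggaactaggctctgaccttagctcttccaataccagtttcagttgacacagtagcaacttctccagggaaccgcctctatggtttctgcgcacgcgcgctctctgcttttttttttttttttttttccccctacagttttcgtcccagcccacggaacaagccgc
Psmd10: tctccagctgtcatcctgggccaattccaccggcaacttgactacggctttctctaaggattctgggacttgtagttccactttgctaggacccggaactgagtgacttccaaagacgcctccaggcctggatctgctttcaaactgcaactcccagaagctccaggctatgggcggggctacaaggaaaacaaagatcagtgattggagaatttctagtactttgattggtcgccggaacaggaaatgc
Psmd11: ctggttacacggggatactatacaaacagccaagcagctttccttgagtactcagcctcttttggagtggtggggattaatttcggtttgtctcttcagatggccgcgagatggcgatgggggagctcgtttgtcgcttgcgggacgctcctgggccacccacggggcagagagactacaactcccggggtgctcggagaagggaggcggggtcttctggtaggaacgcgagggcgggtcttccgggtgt
The motif of Psmb5 starts 47 bases before its start and that of Psmb6 starts 9 bases before its start. The windows of Psma3, Psmd10 and Psmd11 hold none of the 3 motifs. For Psmb8 only the motif with 9 bases on each side is shown, at chr17:34198089-34198115 on the plus strand, 97 bases before the RefSeq start; GENCODE places this stretch within the first exon of a longer transcript.
Psmb8: cctccgctgTTCCCAGAAgatgccccc
A match is a description of letters and not of binding.

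Most other genes of the ubiquitin-proteasome pathway also had positive values. Of 28 listed genes 27 were tested and 24 were positive over all days with a median of 0.12. Nfe2l2, the stress-response factor NRF2, passed over all days, with a log2 fold change of 0.36 (SE 0.087, limma, adjusted p = 0.031). Nfe2l1, the factor known for driving proteasome genes, had -0.058 (SE 0.11, adjusted p = 0.90). The muscle ubiquitin ligases Trim63 (MuRF1) and Fbxo32 (atrogin-1), which mark atrophy, had 0.56 (SE 0.40) and 0.28 (SE 0.31), and neither passed (adjusted p = 0.60 and 0.78). At days 1, 3 and 7 no gene of the list passed.

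Genes of MHC class I presentation and the interferon response, 17 in all, gave no call over all days or at any day. Over all days 7 of the 17 were positive and the median was -0.024. At day 1, 3 were positive with a median of -0.16, at day 3, 5 with a median of -0.026, and at day 7, 13 with a median of 0.091. Tap1, the peptide transporter that lies beside Psmb9, had -0.17 (SE 0.077, limma, adjusted p = 0.32). B2m, the light chain of MHC class I, had -0.0080 (SE 0.12, adjusted p = 0.99) over all days and 0.24 (SE 0.17, adjusted p = 0.63) at day 7. Isg15, an interferon-induced ubiquitin-like protein, had 0.47 over all days (SE 0.22, adjusted p = 0.32).

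Markers of other cells were counted in the same fits. None of the 10 muscle markers and none of the 10 macrophage markers passed over all days. At day 7, Actn3, an actinin of fast fibres, was higher (log2 fold change 1.64, SE 0.18, limma, adjusted p = 0.014) and Ckm, muscle creatine kinase, was lower (-1.12, SE 0.12, adjusted p = 0.013). S100a8, listed as a neutrophil marker, was higher over all days (3.62, SE 0.67, adjusted p = 0.0059), the only 1 of 5 tested neutrophil markers to pass. The others had 1.85 (S100a9), 0.54 (Retnlg), 0.12 (Csf3r) and -0.0061 (Cxcr2), so the list did not move as a whole. The summed level of the 10 macrophage markers ran from 213 to 584 TPM in the day 7 sham samples and from 406 to 843 TPM in the denervated samples. It ran from 80.8 to 456 TPM against 138 to 170 TPM at day 1. At day 3 it ran from 209 to 542 TPM against 269 to 480 TPM. Of the 10 markers, 0, 3 and 9 had a positive log2 fold change at days 1, 3 and 7. No macrophage marker was at 0 in any sample and 1 of the 6 neutrophil markers was at 0 in at least 1 sample of 5 groups. The part of these cells in the proteasome result was not tested.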

How the data were processed

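Libraries were made with the Illumina TruSeq RNA kit and sequenced on an Illumina NextSeq instrument. The authors deduplicated the reads, trimmed them with Fastp, quantified them against the ENSEMBL GRCm38 cDNA with kallisto 0.43.1 and deposited transcript TPM as a signal that Sleuth had normalised between samples, so the values are not counts. Of 113194 transcripts, 98.46% matched GENCODE M21, and their values were summed by gene. Tests were run with limma 3.58.1 (R 4.3.3). The scale was log2(TPM + 0.5), on the 15032 genes with a mean of at least 1 TPM, with a trend and Benjamini-Hochberg adjustment over all of them. The threshold was 0.05, and the tests were two-sided. Such fold changes understate those of low genes. Over all days the model was day plus injury; each day was fitted on its own 6 samples, and days were compared in a model of the 6 groups. These comparisons share samples. Both sides of a mouse share its number, and their residuals correlated by 0.169 to 0.539. The design had no block, as in the study's methods, and the mouse as a block was an alternative. Day 7 columns were matched to samples by their sequencing index.

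The members, the gene lists and the rule for named genes were chosen with earlier results of these data known. Each member with a mean of at least 1 TPM could be named; the catalytic subunits and those that replace them, activators, the inhibitor, the members that passed and the extremes of each class were described in full, and Psma5, Psmc1, Psmd2, Psmd3, Psmd6 and Psmd8 were added with their values known. The fits were tested on simulated data, with changes larger than any of the core and cap genes and with the sides of a mouse drawn independently. That test therefore does not show how often changes as small as those of the members would be found. 1 gene of the pathway list is not reported here.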

Additional observations from a re-analysis of the deposited data

How the results depend on the processing

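Over all days 3 members passed. The count was 1 with a mean above 0 TPM as the minimum, 5 with a minimum of 5 TPM, 5 with equal sums, 0 with scaling to the muscle markers, 5 with the replicate block (paired by mouse), 1 with the highest transcript of each gene, 0 with transcripts fitted 1 by 1 (added after the data were seen), and 0 to 5 when 1 mouse was left out. At day 3 it was 1 instead of 0 with all samples in the fit and 1 with the highest transcript, and at day 7 it was 1 with all samples in the fit. With all samples in the fit, 323 of 15032 genes passed at day 3 and 225 at day 7. With the highest transcript, 134 of 14541 passed at day 3. Between days on the denervated side, 2 became 1 with a mean above 0 TPM, 1 with equal sums, 0 with muscle scaling, 1 with the highest transcript and 0 to 2 without 1 mouse; no paired fit exists there because the mice differ. The block changed no other count of members. Calls over all genes moved too. Over all days, 468 became 365 with a mean above 0 TPM, 416 with a minimum of 5 TPM and 422 with equal sums. They were 150 with muscle scaling, 517 with the block and 367 with the highest transcript. From day 1 to day 3 on the denervated side, 1503 became 1049 with a mean above 0 TPM and 1031 with equal sums. They were 46 with muscle scaling and 1127 with the highest transcript. The cause of these changes was not tested.

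The sign turned for these values. With the highest transcript the log2 fold change became -0.042 for Psmb8 over all days and -0.19 in place of 0.26 at day 7, 0.13 for Psmb10 at day 3, -0.18 for Psme1, 0.061 for Psme2 and 0.0034 for Psmd9 over all days, and -0.017 for Psma3 at day 1. Scaling to muscle markers gave -0.00298 for Psmb8 at day 3 and -0.19, in place of 0.59, for Psmb5 from day 1 to day 3 on the denervated side. Psme4 over all days was -0.00243 with median-of-ratios scaling, -0.00294 with equal sums and -0.00495 with muscle scaling. Without 1 mouse, Psmb8 at day 1 ranged from -0.27 to 0.11, Psmb9 at day 7 from -0.41 to 0.034, Psmb10 at day 1 from -0.19 to 0.16 and at day 3 from -0.16 to 0.034, Psme2 over all days from -0.069 to 0.000293, and Psme4 from -0.053 to 0.052. All 31 core and cap genes had a positive value over all days under each of the 20 alternatives, and their median was positive at each day. The other minimum levels, the fit without a trend and the block leave these values unchanged (lowest 0.043), so they could not turn a sign. The fits without 1 mouse share samples with each other. Read depth is unknown, so counting error could not be given.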
